A study of Mus musculus with 6 samples.

Results

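The respiratory chain is the set of protein complexes in the inner mitochondrial membrane that passes electrons from NADH and succinate to oxygen and uses the proton gradient so formed to make ATP. Its subunits come from both genomes of the cell. The circular mitochondrial genome encodes core subunits of complexes I, III, IV and V, the 12S and 16S rRNAs of the mitochondrial ribosome and a set of tRNAs, and the nucleus encodes all other subunits and the whole of complex II. In dendritic cells, as in other cells of the immune system, oxidative metabolism is known to differ between subsets and to shift on activation. The rows examined here were those whose gene symbol names a subunit of complexes I to V or begins with the mitochondrial prefix. This gave 110 of the 14912 rows of the table. Of these, 82 were nuclear genes, 11 were mitochondrial mRNAs, 2 were mitochondrial rRNAs and 15 were mitochondrial tRNAs. The mitochondrial genes mt-Co2 and mt-Nd4l were not analysed here.

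The cells were bone marrow cultures from wild-type C57BL/6J mice, labelled as dendritic cells derived from bone marrow. All 6 cultures, control and treated alike, contained 50 ng/ml of FLT3 ligand, a cytokine that dendritic cells need to develop, in medium that was replaced on day 7. In the final 2 days 3 of them were exposed to 10 ng/ml of recombinant human midkine, which binds heparin and acts as a growth factor, and 3 controls were not. The labels give neither the age of the mice nor whether replicates came from separate mice or cultures. The p-values therefore reflect how far these samples differ within a group, which may be technical spread. Expression was read with a 3' end kit (QuantSeq), which primes cDNA from stretches of A. Libraries held 5089338 to 5532055 reads in controls and 5685055 to 6453768 with midkine. Markers of the labelled cell type were read, and so were those of other cells. Of 12 tested dendritic cell markers 4 rose and 5 fell, all 10 plasmacytoid dendritic cell markers fell (summed level 6653 to 6946 in controls, 1754 to 1907 with midkine), and 7 of 8 tested stromal markers rose and 1 fell (13878 to 17184 against 36244 to 39173). Thy1, a stromal marker, had no read in at least 1 library. Neutrophil markers, 4 tested of 9 listed, of which 3 fell, summed to 533 to 661 in controls and 38.5 to 69.9 with midkine, and Ly6g, Elane and Retnlg had no read in at least 1 library. Of 10 macrophage markers 4 rose and 3 fell (summed level 4776 to 6986 against 12874 to 14419). In bulk samples fewer cells of a type and less RNA per cell cannot be told apart, and the part of these shifts in the results below was not tested.

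Levels are given as normalised read counts, in which the authors scaled each library by its size factor. Changes were called at an adjusted p under 0.05 in limma, fitted across the 11844 genes with a mean of at least 10, of which 101 were respiratory chain rows. Across all of these genes 42.7% were called, 20.9% higher and 21.8% lower with midkine. Among the 101 respiratory chain rows 14 rose, 13 fell and 74 were not called (26.7% called), and these counts include 2 tRNA rows, mt-Te and mt-Ta, that reached the mean of 10 only through 1 group. The median log2 fold change, on the log2(value + 1) scale used throughout, was -0.029 for these rows and -0.0086 for all genes. The median size of the change regardless of direction was 0.16 against 0.31. Changes of at least 0.5 were called for 10 of the 101 rows (26.9% of all genes) and of at least 1 for 7 (10.1%). The midkine and control values did not overlap for 36 of the 101 rows (51.3% of all genes), with midkine above in 18 and below in 18. The rows mt-Te and mt-Ta are also among those counted as 10, 7 and 36. Both mitochondrial rRNAs rose, 4 of 11 mitochondrial mRNAs rose and none fell by limma, and among 79 tested nuclear genes 5 rose and 12 fell, within a range of -0.59 to 0.51. No mitochondrial mRNA was lower in edgeR or DESeq2, and 1 was lower at an unadjusted limma p under 0.05. That none fell depends on the scaling: of the 11, limma called 4 higher and 3 lower after quantile normalization, and 2 higher and 4 lower with total reads as the scale. The sign of many small changes depends on scaling: dividing by total reads in place of size factors moves the median of all genes to -0.26, and then 6 of the 101 rows were higher (10.8% of all genes) and 57 lower (40.7%). With mitochondrial and nuclear rRNA rows kept out of the total, 13 were higher (17.1% of all genes) and 26 lower (26.8%), and edgeR called 17 higher (21.8%) and 16 lower (21.7%).

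**Figure D1:**
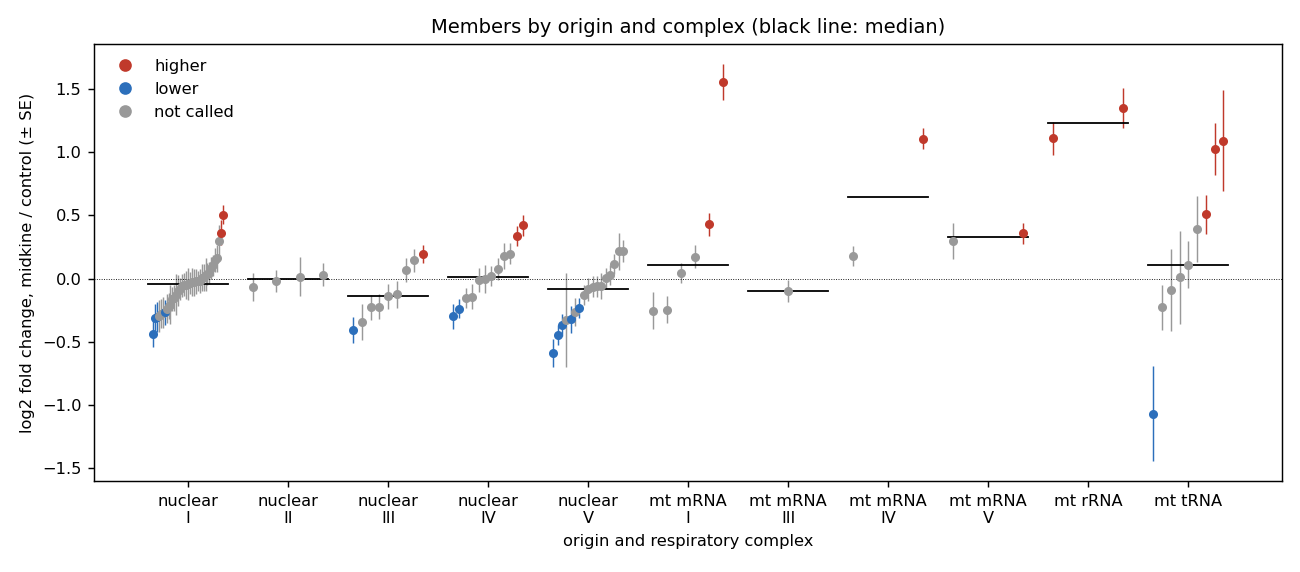
Each point is 1 tested respiratory chain row, with its log2 fold change (midkine over control, ± SE) on the vertical axis, grouped on the horizontal axis by genome of origin and complex. Black lines are medians and colours mark the limma call. Nuclear subunits lie between -0.59 and 0.51, while mt-Nd6, mt-Co1 and both rRNAs lie above 1.

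The mitochondrial rRNAs rose with midkine. These are the structural RNAs of the ribosome that translates the mitochondrial mRNAs. Their joint share of all reads was 9.69%, 9.86% and 9.33% in the control libraries and 20.9%, 18.1% and 20.3% with midkine, a mean of 9.63% ± 0.27 against 19.8% ± 1.49 (SD, n = 3 each). The share was thus higher in each midkine library than in any control. mt-Rnr2, the 16S rRNA (mitochondrial genome, GRCm38, 1094 to 2675, plus strand), stood at 380879, 355335 and 363526 normalised read counts in controls and 1029218, 834006 and 955773 with midkine. It rose 2.55-fold (log2 fold change 1.35, SE 0.16, limma adjusted p = 1.17e-07). mt-Rnr1, the 12S rRNA (70 to 1024, plus strand), stood at 125689, 131424 and 131298 in controls and 311154, 235608 and 298355 with midkine. It rose 2.16-fold (log2 fold change 1.11, SE 0.13, limma adjusted p = 1.24e-07), and for both rRNAs midkine replicate 2 was the lowest of its group but lay above all controls. Under quantile normalization mt-Rnr1 had a change of 0 and was not called, since that method gives rows of equal rank the same value in each library.

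The rRNAs did not move in a fixed ratio to the other mitochondrial transcripts. For each mitochondrial mRNA read there were 12.6, 11.0 and 12.5 rRNA reads in controls and 26.3, 27.3 and 26.5 with midkine. For each mt-Rnr1 read there were 3.03, 2.70 and 2.77 mt-Rnr2 reads in controls and 3.31, 3.54 and 3.20 with midkine, so these groups did not overlap either. The mitochondrial mRNAs together took 0.805% ± 0.082 of reads in controls and 0.741% ± 0.069 with midkine, and these groups overlapped. The nuclear subunit genes took 0.888% ± 0.057 and 0.743% ± 0.047 of reads (SD, n = 3 each). As normalised read counts, in contrast, the sum over the 82 nuclear genes was 45693 ± 1291 in controls and 45767 ± 1772 with midkine. Gm42418, a row over the nuclear rRNA repeat, varied among libraries (9.30% ± 3.10 against 8.70% ± 1.08) and was not called. The tRNA rows took 0.0055% of reads in each group.

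**Figure D2:**
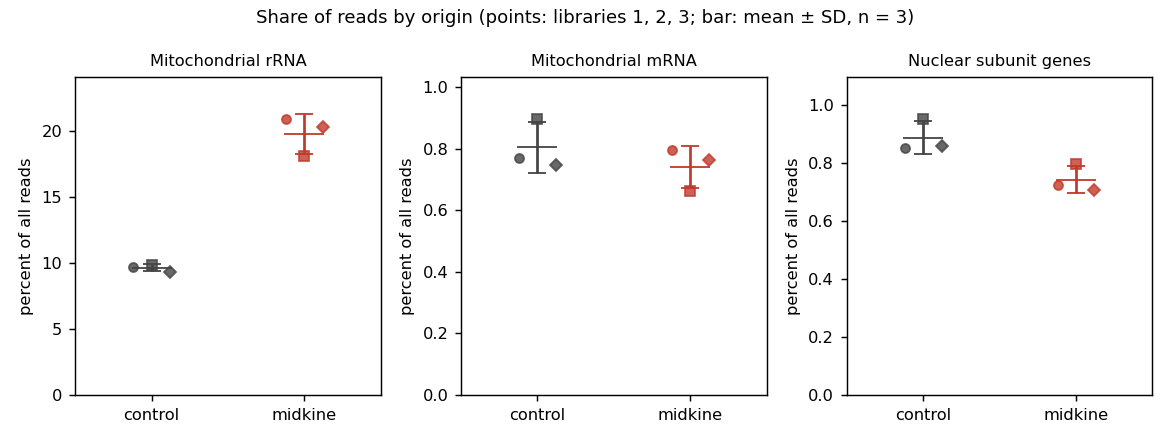
The vertical axes give the percent of all reads in mitochondrial rRNA, mitochondrial mRNA and nuclear subunit rows, with 1 point per library and the mean ± SD of 3 libraries per group. The rRNA share lies between 9.33% and 9.86% in controls and between 18.1% and 20.9% with midkine, while the mRNA shares overlap.

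Mitochondrial rRNAs and tRNAs carry short tails or none, and a kit that primes on A can start inside a transcript, so the longest runs within the rows that the results turn on are shown, 5' to 3' on the strand of the gene, from the GRCm38 mitochondrial genome with the run in capitals. For mt-Nd6 the run is of T, which is a run of A on the opposite strand. Positions are chrM:1472-1510 for mt-Rnr2, chrM:689-725 for mt-Rnr1, chrM:6100-6138 for mt-Co1, chrM:4036-4075 for mt-Nd2, chrM:7890-7926 for mt-Atp8 and chrM:13885-13923 (minus strand) for mt-Nd6.
mt-Rnr2: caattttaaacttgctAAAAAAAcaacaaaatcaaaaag
mt-Rnr1: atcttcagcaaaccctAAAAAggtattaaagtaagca
mt-Co1: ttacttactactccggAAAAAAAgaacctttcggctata
mt-Nd2: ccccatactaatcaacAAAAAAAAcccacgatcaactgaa
mt-Atp8: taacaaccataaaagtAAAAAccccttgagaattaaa
mt-Nd6: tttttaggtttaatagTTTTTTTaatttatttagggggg
The longest run of A was 7 bases in mt-Rnr2, mt-Co1, mt-Nd4 and mt-Nd5, 8 in mt-Nd2 and 5 in mt-Rnr1 and mt-Atp8. Rows with a run of 7 thus include rows that rose (mt-Rnr2, mt-Co1, mt-Nd4) and one that was not called (mt-Nd5), and the table does not show where within a row its reads begin. The part of such priming in the results was not tested.

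Among the mitochondrial mRNAs, mt-Co1 and mt-Nd6 rose more than 2-fold and the others by far less or not at all. mt-Co1 (5328 to 6872, plus strand), the catalytic subunit of complex IV, stood at 1875, 1596 and 1793 normalised read counts in controls and 3958, 3402 and 4001 with midkine. It rose 2.16-fold (log2 fold change 1.11, SE 0.08, limma adjusted p = 4.1e-11), with all midkine libraries far above all controls. Its part of the mitochondrial mRNA reads was 4.26% ± 0.58 in controls and 8.30% ± 0.48 with midkine (SD, n = 3 each). mt-Co3 (8607 to 9390, plus strand), another core subunit of complex IV, stood at 1046, 1006 and 955 in controls and 1163, 1109 and 1133 with midkine. Its groups did not overlap, but its change of 0.18 (SE 0.08, limma adjusted p = 0.061) was not called.

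Of the 6 complex I mRNAs of this genome 2 rose. mt-Nd6 (13552 to 14070), the one mRNA encoded on the minus strand, stood at 113, 79.3 and 84.4 in controls and 269, 224 and 327 with midkine. It rose 2.94-fold (log2 fold change 1.56, SE 0.15, limma adjusted p = 2.85e-09). The last bases of mt-Nd6 overlap those of mt-Nd5 on the opposite strand, and the strand setting of the counting is not given in the sources used here. mt-Nd4 (10167 to 11544), a proton-pumping subunit, rose less, by 0.43 (SE 0.09, limma adjusted p = 0.00051), from 7415 ± 1099 to 9948 ± 910 (SD, n = 3 each). Scaling to total counts (0.17, limma adjusted p = 0.165) and quantile normalization (0.064, limma adjusted p = 0.56) each end that call. mt-Nd1, mt-Nd2, mt-Nd3 and mt-Nd5, also membrane subunits of complex I, were not called, at 0.045, -0.26, -0.25 and 0.17. After quantile normalization mt-Nd1 (-0.28, limma adjusted p = 0.0013) and mt-Nd2 (-0.54, limma adjusted p = 0.0084) fell. After scaling to total counts mt-Nd1 (-0.21), mt-Nd2 (-0.51) and mt-Nd3 (-0.51) fell (limma adjusted p = 0.038, 0.0039 and 0.00059). Without control replicate 1 mt-Nd3 was also called lower (-0.33, limma adjusted p = 0.018).

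mt-Cytb, the cytochrome b of complex III, stood at 4980 ± 448 in controls and 4662 ± 525 with midkine (SD, n = 3 each) and was not called (log2 fold change -0.10, 95% interval -0.28 to 0.08). It was called lower after quantile normalization (-0.34, limma adjusted p = 0.0022) and after scaling to total counts (-0.36, limma adjusted p = 0.0021). For complex V, mt-Atp6 (7927 to 8607), the subunit that forms the proton channel, stood at 1069, 1258 and 1051 in controls and 1451, 1502 and 1371 with midkine. It rose by 0.36 (SE 0.08, limma adjusted p = 0.00092), and scaling to total counts ends that call (0.10, limma adjusted p = 0.38). Its neighbour mt-Atp8 (7766 to 7969) shares bases with it on the same strand, so reads there could be assigned to either.

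Among the mitochondrial mRNAs and rRNAs, midkine replicate 2 stood furthest from the other midkine libraries at mt-Nd2 and mt-Atp8. For mt-Nd2 (3914 to 4951) the controls stood at 12009, 12656 and 11002, and the midkine libraries at 12609, 6487 and 12008. For mt-Atp8 the controls stood at 1379, 1492 and 1430 and the midkine libraries at 2170, 1152 and 2185. In both rows replicate 2 was below all controls while the other midkine libraries were level with or above them. The value of replicate 2 was 0.527 of the mean of the other midkine libraries for mt-Nd2 and 0.529 for mt-Atp8. Across the 746 genes with a mean of at least 1000, these were the only 2 at or below 0.6, and the median ratio over all tested genes was 0.999. Smaller gaps lay outside that limit. The ratio was 0.737 for mt-Nd5, 0.750 for mt-Nd6, 0.773 for mt-Rnr1, 0.822 for mt-Cytb, 0.840 for mt-Rnr2 and 0.855 for mt-Co1. It was 0.929 to 1.06 for mt-Nd1, mt-Nd3, mt-Nd4, mt-Co3 and mt-Atp6. Midkine replicate 2 held 6453768 reads. Without it, mt-Nd2 changed by 0.052 (limma adjusted p = 0.67) in place of -0.26 (limma adjusted p = 0.165), and without midkine replicate 1 by -0.43 (limma adjusted p = 0.031). Without midkine replicate 2, mt-Atp8 rose by 0.60 (limma adjusted p = 2.8e-07) in place of 0.30 (limma adjusted p = 0.097). mt-Nd5 likewise passed the test without that library (0.32, limma adjusted p = 0.0016). The calls of mt-Co1, mt-Nd6, mt-Nd4, mt-Atp6 and both rRNAs held without it.

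**Figure D3:**
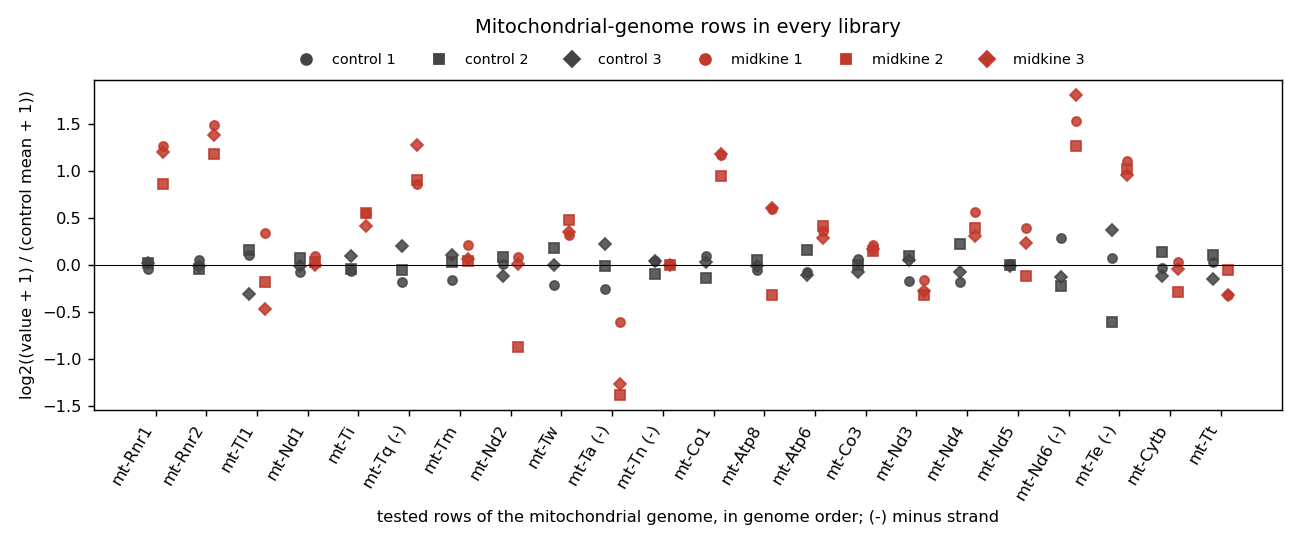
Rows of the mitochondrial genome with a mean of at least 10 are shown in genome order, and the vertical axis gives each library as log2 of (value + 1) over (control mean + 1). Both rRNAs, mt-Co1 and mt-Nd6 lie above the controls in each midkine library. Midkine replicate 2 (square) lies furthest below the other midkine libraries at mt-Nd2 and mt-Atp8.

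Mitochondrial tRNAs bring amino acids to the mitochondrial ribosome and punctuate the long precursor transcripts from which the mRNAs are cut. Of the 15 tRNA rows 9 had a mean of at least 10, and of these mt-Tq and mt-Ti rose with means of at least 10 in both groups. mt-Tq, the glutamine tRNA on the minus strand, stood at 24.6, 27.1 and 32.3 in controls and 51.8, 53.2 and 69.6 with midkine (log2 fold change 1.03, SE 0.21, limma adjusted p = 0.00028). mt-Ti, the isoleucine tRNA, which shares bases with mt-Tq on the plus strand, stood at 57.6, 58.8 and 64.6 in controls and 89.0, 88.9 and 80.7 with midkine (0.51, SE 0.16, limma adjusted p = 0.010). Both rows had groups that did not overlap. Scaling to total counts ends the call of mt-Ti (0.25, limma adjusted p = 0.20). mt-Te, the glutamate tRNA next to mt-Nd6 on the minus strand, rose from 6.23 ± 2.33 to 13.8 ± 0.77, and mt-Ta, the alanine tRNA, fell from 15.9 ± 2.77 to 7.23 ± 2.54 (SD, n = 3 each). Each of these last rows reached the mean of 10 only through the group where it was high, so their calls (limma adjusted p = 0.0305 and 0.0238) are given as a description. Both are lost in DESeq2 and without any one of 4 of the 6 libraries, and that of mt-Te also after scaling to total counts. The remaining tested tRNAs, mt-Tn, mt-Tw, mt-Tm, mt-Tl1 and mt-Tt, ranged from -0.23 to 0.39 and were not called.

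The nuclear subunit genes moved within a narrow range. Of 79 tested, 17 were called (21.5%, against 42.7% of all genes), and 2 changed by at least 0.5 on the log2 scale. By complex the share called was 16.2% for I, 0% for II, 22.2% for III, 33.3% for IV and 29.4% for V. The groups did not overlap for 24 of the 79, with midkine above in 7 and below in 17, where 25.1% and 26.2% of all genes were above and below. As sums of normalised read counts, midkine over control was 1.01 for complex I, 0.996 for complex II, 1.05 for complex III, 1.07 for complex IV and 0.914 for complex V.

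Complex I takes electrons from NADH and is the largest of the complexes. Of its 37 nuclear genes 2 rose and 4 fell, at a median of -0.045. Ndufa6 (chromosome 15, 82350140 to 82354322, minus strand), an accessory subunit, had the largest rise of all nuclear subunits. It stood at 832, 811 and 855 in controls and 1189, 1139 and 1222 with midkine (log2 fold change 0.51, SE 0.08, limma adjusted p = 7.5e-06). The midkine values were tightly grouped above all controls. Ndufa13 (chromosome 8), also known as Grim-19 and linked to cell death, stood at 482, 619 and 586 in controls and 811, 706 and 649 with midkine (0.36, SE 0.10, limma adjusted p = 0.0046), with control replicate 2 close below midkine replicate 3. Scaling to total counts (0.10, limma adjusted p = 0.43) ends this call, as does a fit without a variance trend (limma adjusted p = 0.082).

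Among the 7 nuclear core genes of complex I, those of its flavin and iron-sulphur centres, none rose and 1 fell, in limma, edgeR and DESeq2 alike, and none was higher at an unadjusted limma p under 0.05. The one that fell was Ndufs8 (chromosome 19, 3908863 to 3912774), an iron-sulphur subunit, at 230, 216 and 237 in controls and 162, 176 and 166 with midkine (-0.44, SE 0.11, limma adjusted p = 0.0021). The groups were well apart. The other 30 nuclear genes held 2 higher and 3 lower. The accessory genes Ndufa1 (-0.31, limma adjusted p = 0.0285), Ndufb7 (-0.27, limma adjusted p = 0.0325) and Ndufa9 (-0.30, limma adjusted p = 0.044) fell. Each of these calls is lost in DESeq2 and without any one of several libraries. Ndufa1 overlapped between groups, with midkine replicate 2 at 273 and control replicate 3 at 261. Ndufa4 carries a complex I name although its protein is now assigned to complex IV, and it was not called (-0.30, limma adjusted p = 0.057).

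Complex II, succinate dehydrogenase, links the tricarboxylic acid cycle to the chain and is encoded by 4 nuclear genes. None of Sdha, Sdhb, Sdhc and Sdhd was called by limma, and their log2 fold changes ran from -0.067 to 0.031. None passed in edgeR or DESeq2 either, and none had an unadjusted limma p under 0.05, but after scaling to total counts 2 of the 4 were called lower (median -0.26). Complex III, which hands electrons to cytochrome c, had 9 nuclear genes, of which 1 rose and 1 fell. Uqcrc1 (chromosome 9, 108936633 to 108949623), a core protein, stood at 271, 242 and 247 in controls and 193, 199 and 181 with midkine (-0.41, SE 0.11, limma adjusted p = 0.0031), with no overlap. Uqcrh, the hinge protein, rose by 0.20 (limma adjusted p = 0.037). This small rise is lost under 10 alternatives and is below 0 under quantile normalization (-0.051) and scaling to total counts (-0.063). Cyc1, cytochrome c1, lay just outside the threshold at -0.35 (limma adjusted p = 0.055).

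Complex IV, cytochrome c oxidase, reduces oxygen. Of its 12 tested nuclear genes 2 rose and 2 fell. Cox8a (chromosome 19, 7215153 to 7217616) stood at 1305, 1487 and 1312 in controls and 1742, 2060 and 1706 with midkine (0.42, SE 0.08, limma adjusted p = 0.00022). Cox7a2l, which joins complexes III and IV in supercomplexes, stood at 1937, 2050 and 2115 in controls and 2494, 2858 and 2386 with midkine (0.34, SE 0.08, limma adjusted p = 0.0011). In both genes all midkine libraries lay above all controls, and scaling to total counts ends both calls (0.16 and 0.081, limma adjusted p = 0.17 and 0.47). Cox5b fell by 0.30 (limma adjusted p = 0.019) and Cox6c by 0.24 (limma adjusted p = 0.015). Cox6c has a near-identical copy elsewhere in the genome, and its control values were 1728, 1730 and 1730 against 1514, 1339 and 1555 with midkine. Cox5b is not called in DESeq2 (adjusted p = 0.053), without a variance trend (limma adjusted p = 0.066) or without control replicate 2 or midkine replicate 3. Cox6c is not called without a variance trend (limma adjusted p = 0.10) or without midkine replicate 2.

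Several complex IV subunits exist as tissue isoforms. Cox6a2, the heart and muscle isoform that is also expressed in plasmacytoid dendritic cells, stood at 237, 293 and 242 in controls and 242, 280 and 247 with midkine. The groups overlapped (log2 fold change -0.0016, 95% interval -0.23 to 0.22), whereas all 10 markers of plasmacytoid dendritic cells fell, at a median of -2.85. For each 100 reads of the widely expressed isoform Cox6a1 there were 22.7, 28.1 and 23.8 reads of Cox6a2 in controls and 22.7, 24.9 and 25.6 with midkine. The ratio thus overlapped between the groups. Of the 7 muscle markers fixed as a list 2 were tested: Acta1 rose by 1.47 and Tnnt3 was not called. The others were not analysed here. Both rows were low: together they summed to 24.0 to 45.3 in controls and 39.4 to 50.4 with midkine, and these sums overlapped. Cox6b2 and Cox7a1, isoforms of testis and of muscle, had means under 10, with 1.01 to 17.4 normalised read counts per library. Cox4i1, Cox6a1, Cox6b1, Cox7a2 and Cox7b were not called.

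In complex V, ATP synthase, 5 of 17 tested nuclear genes fell (29.4%, against 21.8% of all genes), at a median of -0.086. None rose, against 20.9% of all genes. No difference between complexes was tested. Without control replicate 2, midkine replicate 3 or a variance trend the number lower was 3. edgeR called 1 higher and 6 lower, and DESeq2 none higher and 5 lower. The number higher was also 1 with quantile normalization, TMM, a pseudocount of 5, a minimum mean of 50 or a replicate block. It was 1 as well without midkine replicate 3, and at an unadjusted limma p under 0.05. Atp5j (chromosome 16, 84827866 to 84835625, minus strand), coupling factor 6 of the stalk, fell most. It stood at 244, 226 and 232 in controls and 162, 148 and 154 with midkine (-0.59, SE 0.11, limma adjusted p = 9.4e-05). Atp5f1 (chromosome 3, 105942698 to 105960099), subunit b of the stalk, stood at 736, 680 and 634 in controls and 572, 488 and 529 with midkine (-0.37, SE 0.09, limma adjusted p = 0.00165). For Atp5j and Atp5f1 all midkine libraries lay below all controls. Other subunit genes of the complex, Atp5h (-0.061), Atp5o (-0.063), Atp5c1 (0.030), Atp5d (0.12) and Atp5e (0.0031), were not called, and their groups overlapped. Atp5b, the catalytic beta subunit, fell by 0.23 (limma adjusted p = 0.020) and is named because the count is small, after its values were seen. Its call is lost without a variance trend (limma adjusted p = 0.097), control replicate 2 or midkine replicate 3.

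The c subunit, the rotating ring of the enzyme, is made from 3 genes that encode the same mature protein. Atp5g3 (chromosome 2, 73908447 to 73911326) stood at 2220, 1931 and 1809 in controls and 1485, 1402 and 1468 with midkine (-0.45, SE 0.08, limma adjusted p = 6.9e-05). Atp5g1 (chromosome 11) stood at 330, 440 and 409 in controls and 323, 323 and 290 with midkine (-0.32, SE 0.11, limma adjusted p = 0.016), with control replicate 1 close to the midkine libraries. That call is lost without a variance trend (limma adjusted p = 0.10), control replicate 2, control replicate 3 or midkine replicate 3. Atp5g2 stood at 95.4, 85.8 and 82.3 in controls and 114, 89.8 and 104 with midkine, and its change of 0.22 was not called. Added together, the 3 genes stood at 2467 ± 172 in controls and 1866 ± 53.6 with midkine (SD, n = 3 each), 0.756 of the control level. Atp5g2 has a near-identical copy at its 3' end (Gm10175) in the table. Atp5mpl, a small membrane subunit, lay just outside the threshold (0.22, limma adjusted p = 0.0501).

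**Figure D4:**
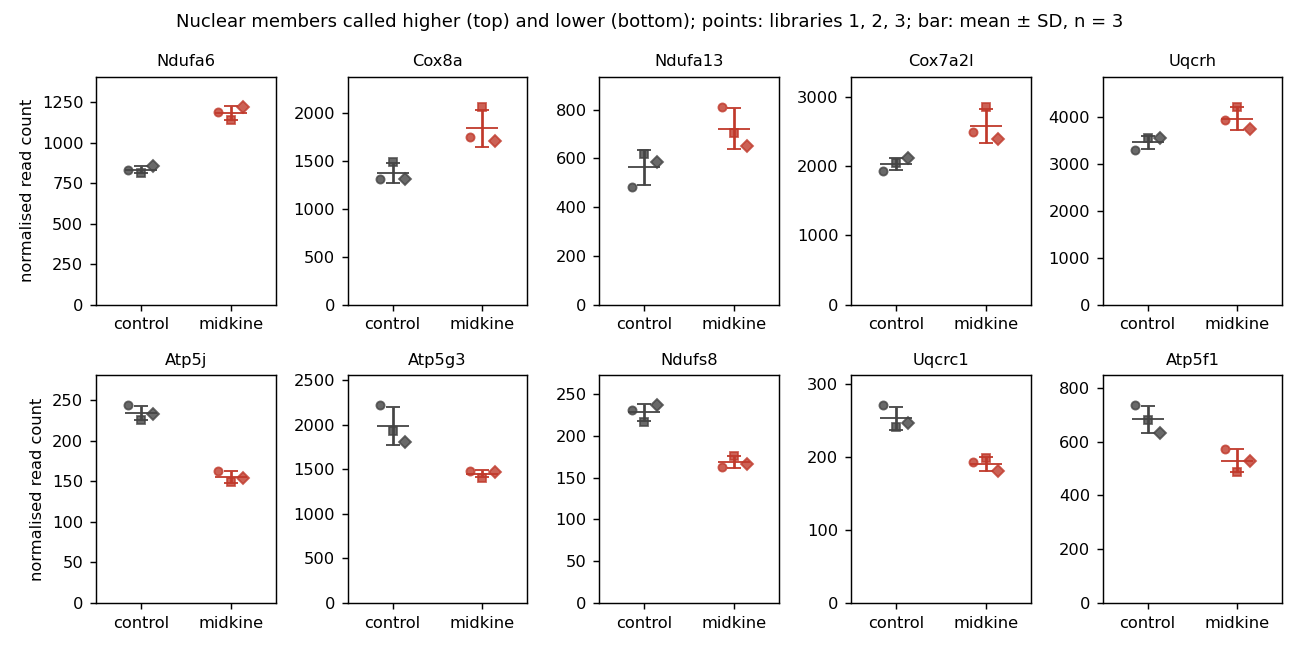
Normalised read counts of 5 nuclear genes called higher (top) and 5 called lower (bottom) with midkine are shown on axes from 0, with 1 point per library and the mean ± SD of 3 libraries per group. The groups do not overlap in any of the 10 panels.

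Nuclear respiratory genes are known to be driven by NRF1 and by ETS-family factors such as GABP. Promoter windows of 250 bases before to 50 after the start (RefSeq, GRCm38.p6) were found for 67 of the 82 nuclear genes, as 72 windows. The motif GCGCNTGCGC of NRF1, searched on both strands, was in 25.0% of these windows, against 4.60% of 32851 windows of all genes and 10.3% of those of tested genes. The ETS motif CCGGAAG, which does not overlap it in sequence, was in 22.2%, against 8.86% and 18.4%. Matches were in windows of genes of either direction, before or after the start: the NRF1 motif was in 1 of 5 windows of genes that rose, 2 of 12 of genes that fell and 15 of 53 of genes not called, and the ETS motif in 2, 3 and 11. A gene of each direction is shown for each motif, with the match in capitals. Any part of these motifs in the direction of change was not tested. Ndufa6 (chr15:82354242-82354541, minus strand) rose and Uqcrc1 (chr9:108936398-108936697, plus strand) fell, both with the NRF1 motif. Cox8a (chr19:7217567-7217866, minus strand) rose, with the ETS motif on the strand opposite to the gene. Atp5j (chr16:84834927-84835226, minus strand, the second of its RefSeq starts) fell, with the ETS motif on the strand of the gene. The other window of Atp5j has no match to either motif.
Ndufa6: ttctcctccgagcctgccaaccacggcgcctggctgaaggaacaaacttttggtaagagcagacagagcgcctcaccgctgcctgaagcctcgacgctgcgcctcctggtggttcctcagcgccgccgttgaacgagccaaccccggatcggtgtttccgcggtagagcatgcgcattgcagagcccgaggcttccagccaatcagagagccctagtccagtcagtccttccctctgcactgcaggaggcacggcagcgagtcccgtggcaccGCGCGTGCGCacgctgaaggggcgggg
Uqcrc1: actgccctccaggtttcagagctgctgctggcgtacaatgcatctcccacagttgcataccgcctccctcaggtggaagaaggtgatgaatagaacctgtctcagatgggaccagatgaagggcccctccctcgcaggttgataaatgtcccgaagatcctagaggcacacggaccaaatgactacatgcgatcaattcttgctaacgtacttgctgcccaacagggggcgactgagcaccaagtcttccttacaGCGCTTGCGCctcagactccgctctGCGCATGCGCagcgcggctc
Cox8a: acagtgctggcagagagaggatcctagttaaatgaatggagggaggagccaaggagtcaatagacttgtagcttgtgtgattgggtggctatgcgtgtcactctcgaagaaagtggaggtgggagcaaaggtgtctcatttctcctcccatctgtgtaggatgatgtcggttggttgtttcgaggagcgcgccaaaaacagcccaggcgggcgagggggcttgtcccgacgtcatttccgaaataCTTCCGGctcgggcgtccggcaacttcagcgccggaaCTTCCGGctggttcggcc
Atp5j: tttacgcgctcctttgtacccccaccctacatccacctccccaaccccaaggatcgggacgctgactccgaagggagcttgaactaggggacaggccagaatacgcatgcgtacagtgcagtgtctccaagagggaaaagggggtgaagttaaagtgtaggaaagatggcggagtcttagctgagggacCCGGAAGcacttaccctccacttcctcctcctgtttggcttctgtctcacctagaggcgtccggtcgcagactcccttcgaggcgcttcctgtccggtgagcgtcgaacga
Among 8 tested regulators of mitochondrial biogenesis 2 fell by limma (25.0%, close to the 21.8% of all genes that fell). By edgeR 2 also fell (21.7% of all genes), and by DESeq2 none. Nrf1 fell by 0.36 (limma adjusted p = 0.030) and Gabpa, the DNA-binding subunit of GABP, by 0.39 (limma adjusted p = 0.040). Gabpa stood at 163, 160 and 156 in controls and 161, 92.6 and 121 with midkine, so its groups overlapped, and without midkine replicate 2 its change was -0.19 (limma adjusted p = 0.29). The call of Nrf1 is lost in DESeq2 (adjusted p = 0.083), without a variance trend (limma adjusted p = 0.070) and without control replicate 3, midkine replicate 2 or midkine replicate 3 (limma adjusted p = 0.19, 0.11 and 0.053). That of Gabpa is lost in DESeq2 (adjusted p = 0.11), without a variance trend, without a filter and without any one library other than midkine replicate 1. Gabpa starts 700 bases from Atp5j on the other strand, and their exons overlap.

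The genes that build and serve the chain were split in direction. Across 10 lists of assembly factors, carriers, genome upkeep, RNA processing, regulators and the tricarboxylic acid cycle, together with factors linked to supercomplexes and hypoxia, 125 genes outside the rows above were tested. Of these 9 rose and 12 fell, at a median of -0.004, where 20.9% of all genes rose and 21.8% fell. The same shares of all genes apply beside the counts of each list below. In complex IV assembly 2 of 21 rose and 1 fell. Surf1, an assembly factor of early complex IV intermediates, stood at 69.9, 72.8 and 62.5 in controls and 125, 136 and 129 with midkine (0.92, SE 0.14, limma adjusted p = 8.4e-06). Sco2, which helps to deliver copper, stood at 34.0, 67.2 and 64.6 in controls and 27.0, 24.7 and 28.2 with midkine (-0.96, SE 0.24, limma adjusted p = 0.0020). These factors for the same complex thus moved in opposite directions with no overlap between groups. Cox17, the copper chaperone, rose by 0.41 (limma adjusted p = 0.00865). Its call is lost without a variance trend (limma adjusted p = 0.090), control replicate 3 or midkine replicate 1.

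For complex III, Bcs1l, which inserts the Rieske protein, rose by 0.80 (limma adjusted p = 0.0069, and 0.058 without midkine replicate 2) and Uqcc3 fell by 0.48 (limma adjusted p = 0.0025), among 5 tested. For complex I, Ndufaf3 rose by 0.56 (limma adjusted p = 0.020) and Acad9 fell by 0.49 (limma adjusted p = 0.0095), among 15. Ndufaf3 was not called in DESeq2 (adjusted p = 0.067) or without control replicate 1 or midkine replicate 1 (limma adjusted p = 0.098 and 0.072), and Acad9 was not called without control replicate 2 (limma adjusted p = 0.070). None of the 4 assembly genes tested for complex II or of the 4 for complex V passed in limma, edgeR or DESeq2, and 1 of each was higher at an unadjusted limma p under 0.05. Of 13 carrier genes 3 rose and none fell by limma: the coenzyme Q genes Coq10a (0.55), Coq10b (0.52) and Coq3 (0.57). edgeR called 4 higher and DESeq2 only 1. The call of Coq3 is lost in DESeq2 (adjusted p = 0.12), in each fit that left out 1 library (limma adjusted p = 0.051 to 0.21), with a replicate block, without a filter and under quantile normalization. That of Coq10b is lost in DESeq2 (adjusted p = 0.10), under quantile normalization and in 4 of the 6 fits without 1 library, and that of Coq10a without control replicate 2 or midkine replicate 3. No carrier gene fell in edgeR or DESeq2, and 1 was lower at an unadjusted limma p under 0.05. Scaling to total counts ends the calls of Bcs1l, Ndufaf3, Cox17 and these 3 coenzyme Q genes.

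Beside the rise of the rRNAs, no gene of the lists for the mitochondrial genome and its RNA was called higher by limma. Of 14 genes for upkeep and transcription of the mitochondrial genome, none rose and Polg, its polymerase, fell by 0.40 (limma adjusted p = 0.039). In this list none rose in edgeR, in DESeq2 or at an unadjusted limma p under 0.05. Tfam, which packages that genome and starts its transcription, stood at 148, 102 and 146 in controls and 135, 122 and 107 with midkine and was not called (-0.11, limma adjusted p = 0.60). Of 20 genes for processing and stability of mitochondrial RNA none rose in limma and 3 fell, 1 rose in edgeR and none in DESeq2, and 1 was higher at an unadjusted limma p under 0.05. Those that fell were Mrm3, which methylates the 16S rRNA (-0.79, limma adjusted p = 0.011), Tbrg4 (-0.34, limma adjusted p = 0.0155) and Pnpt1, a mitochondrial RNA nuclease (-0.48, limma adjusted p = 0.040). Each of the 4 calls is lost in DESeq2 and without at least 1 library. In the tricarboxylic acid cycle 2 of 13 genes fell and none rose, Idh3a (-0.68, limma adjusted p = 0.000235) and Fh1, fumarase (-0.58, limma adjusted p = 0.00017), and the groups of both were apart. In this list 1 gene rose in edgeR, none in DESeq2 and 1 at an unadjusted limma p under 0.05. Among factors linked to supercomplexes and hypoxia, Higd1a (0.34) and Lonp1 (0.35) rose and Immt (-0.27) fell. Scaling to total counts ends both of these rises (Higd1a 0.086, limma adjusted p = 0.42; Lonp1 0.097, limma adjusted p = 0.53). Lonp1 was also not called without control replicate 2 or midkine replicate 3. Immt was not called without a variance trend (limma adjusted p = 0.079), control replicate 2, midkine replicate 1 or midkine replicate 3.

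**Figure D5:**
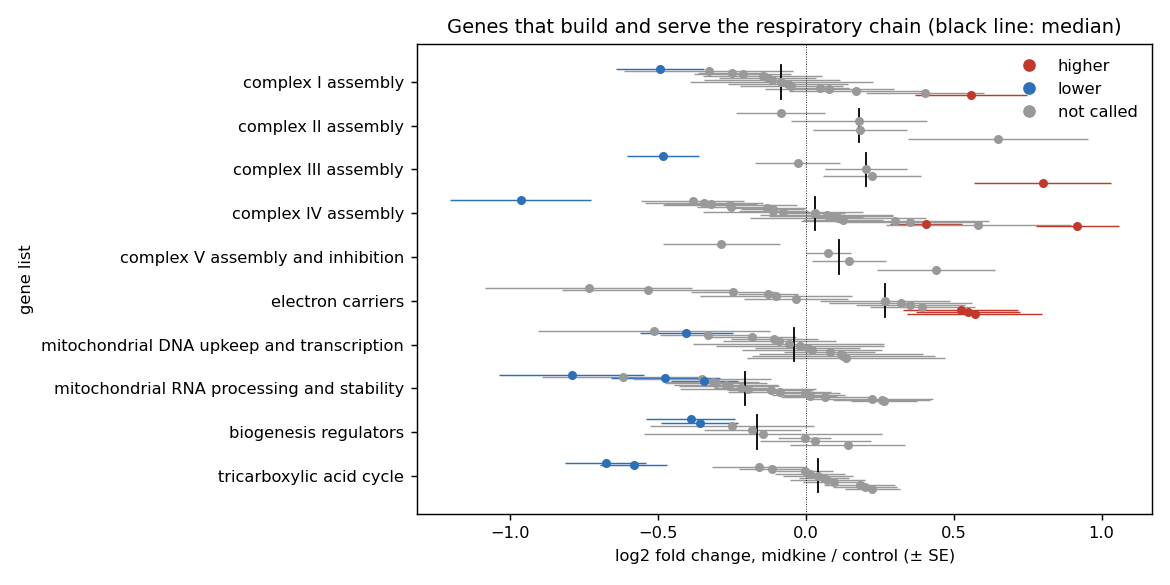
Each point is 1 tested gene, with its log2 fold change (midkine over control, ± SE) on the horizontal axis, grouped on the vertical axis by list. Black lines are medians and colours mark the limma call. Surf1 and Sco2 lie at opposite ends of the complex IV assembly list, and no gene is called higher in the lists for the mitochondrial genome, its RNA, the regulators or the tricarboxylic acid cycle.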

How the data were processed

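Total RNA (500 ng; mean RNA integrity number 8, range 5 to 10) was sequenced with a 3' end kit on an Illumina HiSeq, per the labels' protocols. The deposited table holds a signal for each of 14912 gene symbols in each library, which the authors obtained by scaling read counts with size factors. All values were whole multiples of the value of 1 read (within 1e-06), which gave back the read counts behind the deposited values. The submitters' processing notes name TopHat2 2.0.10, HTSeq, DESeq2 and the builds GRCm38 and mm10. The sources used here do not give the strand and multi-mapping settings.

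Groups came from the treatment label, and each column name matched 1 sample title. Genes with a mean of at least 10 were tested with limma 3.58.1 (variance trend, R 4.3.3) after a log2(value + 1) transform, and p-values were adjusted over 11844 genes by the Benjamini-Hochberg method. Fold changes on this scale understate changes of low genes. Shares use recovered reads and carry no test. Alternatives were pseudocounts of 0.5 and 5, other filters, TMM, quantile and total-count scaling, no trend, a replicate block, a looser adjusted threshold of 0.1, fits without each library in turn, and count models of the recovered reads (DESeq2 1.42.0, and the quasi-likelihood test of edgeR 4.0.16). On simulated data for midkine against control (11844 genes), limma found 5 of 50 genes simulated at 1.25-fold and 30 of 50 at 1.5-fold. It found 38 of 50 at 2-fold and 50 of 50 at 4-fold, and 7 calls were false. Small changes were thus often missed in the simulation. It changed a far smaller share of genes than the 42.7% called here and drew them from all levels. It therefore does not give the share of small changes missed among these subunits.

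The respiratory chain rows, the lists and the rule for named genes were chosen with earlier results of these data known. Named were each tested mitochondrial row, per complex the 3 called nuclear genes of smallest p in each direction, tissue isoforms, the c subunit genes, genes nearest the threshold and, per list, the 3 called genes of smallest p in each direction. Positions are GENCODE vM21 (GRCm38). Copies were searched with BLAST+ 2.17.0 (at least 100 bases; 85% identity for mitochondrial rows, 97% for the last 300 bases of nuclear transcripts). Figures used matplotlib 3.10.9.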

Additional observations from a re-analysis of the deposited data

How the results depend on the processing

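Scaling moved the split of calls. Against 14 higher and 13 lower respiratory chain rows, there were 6 higher and 57 lower after scaling to total counts, and leaving mitochondrial and nuclear rRNA rows out of the totals gave 26 lower. Fitting no variance trend gave 7 lower, DESeq2 gave 8 and an adjusted p under 0.1 gave 23. Leaving out 1 library gave 12 to 15 higher and 7 to 16 lower, with 7 lower without control replicate 2 and without midkine replicate 3. The share of rRNA reads, 2.05 times the control mean, was 2.33 times with those rows left out of the total. The same change moved mitochondrial mRNA from 0.921 to 1.05, tRNA from 1.01 to 1.14 and nuclear subunits from 0.837 to 0.949. Of 26 named rows called, 10 were called in the same direction under all alternatives in which they were tested: mt-Rnr2, mt-Co1, mt-Nd6, mt-Tq, Ndufa6, Ndufs8, Uqcrc1, Atp5g3, Atp5j and Atp5f1. Of these, mt-Tq was not tested with a minimum mean of 50, which its level did not reach.

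Replicate numbers did not pair the samples (correlations of deviations -0.0097, 0.029 and -0.058). The fit with a replicate block called 16 higher and 19 lower, of which 26 were shared with the 27 above. Under it mt-Nd2 (limma adjusted p = 0.038) and mt-Atp8 (limma adjusted p = 0.0093) were called and Ndufa9 was not.

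Changes of sign were found for 15 named genes, of which Uqcrh was the only one called. Under scaling to total counts they were Uqcrh -0.063, mt-Co3 -0.078, mt-Nd1 -0.21, mt-Nd5 -0.084, mt-Tm -0.14, mt-Tn -0.23, Cox6a1 -0.24, Cox7a2 -0.18, Atp5g2 -0.040, Atp5mpl -0.042 and Sdhaf1 -0.073. With rRNA and mitochondrial rows left out of the totals they were mt-Nd1 -0.033, mt-Tn -0.061, Cox6a1 -0.056 and Cox7a2 -0.000796. Under quantile normalization they were Uqcrh -0.051, mt-Nd1 -0.28, mt-Nd5 -0.044, mt-Tn -0.089, Cox4i1 0.00718 and Cox6a2 0.018. Cox6a2 was 0.000313 with TMM, 0.0023 in edgeR and 0.0025 in DESeq2. Leaving out each library gave ranges of -0.43 to 0.052 for mt-Nd2, -0.31 to 0.096 for mt-Tl1, -0.039 to 0.034 for mt-Tn, -0.14 to 0.089 for Cox4i1, -0.026 to 0.082 for Cox6a1, -0.065 to 0.095 for Cox6a2 and -0.027 to 0.14 for Cox7a2. The cause of these changes was not tested.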

Other observations

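Of 4 tested rows of nuclear copies of mitochondrial sequence 2 rose by limma. Gm13340, an unprocessed pseudogene 97.6% identical to mt-Co1 over 1545 bases, stood at 23.6, 37.3 and 24.0 normalised read counts in controls and 75.5, 96.2 and 69.6 with midkine (log2 fold change 1.49, limma adjusted p = 2.2e-06). Gm13341, 95.9% identical to mt-Co2 over 684 bases, stood at 65.2, 54.1 and 53.2 in controls and 83.4, 86.1 and 83.7 with midkine (0.55, limma adjusted p = 0.0070). Scaling to total counts ends the call of Gm13341 (0.30, limma adjusted p = 0.14) and not that of Gm13340. The other tested copies did not pass: Gm4076, 95.2% identical to mt-Nd5 over 954 bases, at -0.24 (limma adjusted p = 0.62), and Gm43743, 94.8% identical to mt-Atp6 over 116 bases, at 0.59 (limma adjusted p = 0.20). Further copies match stretches of mt-Co2, mt-Nd4l, mt-Atp6, mt-Co3 and mt-Nd4 without a mismatch (Gm28661, Gm10222, Gm10925, Gm28437 and Gm28439), and their rows were not analysed here. The sources used here do not say how reads that match both genomes were assigned, and whether a row of this kind reports its own transcript or a mitochondrial one was not tested.

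Among head-to-head neighbours, Atp5f1 starts 730 bases from Wdr77, which fell by 0.57 (limma adjusted p = 0.0028), and Atp5j starts 700 bases from Gabpa. The exons of both pairs overlap on opposite strands. Neighbours of other called genes did not pass the test: Rnf113a1 beside Ndufa1 (-0.12) and Lrrc41 beside Uqcrh (-0.02).

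Long nuclear RNAs rose beside the mitochondrial rRNAs: Malat1 by 0.81 (limma adjusted p = 1.5e-06) and Neat1 by 1.43 (limma adjusted p = 1.1e-12). The sources used here give RNA integrity as a mean and range over the samples alone, and the part of RNA quality in these rows was not tested.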
